A study of Rattus norvegicus with 4 samples.

Results

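Runs of evenly spaced nucleosome positions on chromosome 2 were collected from sperm of untreated rats. A run was 6 or more neighbouring positions whose centers lay 160 to 220 bp apart at every step, and the runs were chosen by these distances in the table that joins both control libraries. The rule gave 769 runs with 4912 of 868880 positions (0.565%). They covered 776 kb, or 0.291% of the 266 Mb that the positions span in build rn6. Number, length and spacing of the runs in the controls were set by the rule and are given as descriptions, with no test.

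Spermatozoa came from the caudal epididymis of Holtzman rats aged 75 days, a randomly bred strain, with 6 animals in each of 3 groups. Controls received water. One group was given cyproterone acetate by mouth at 20 mg per kg per day for 60 days, and another tamoxifen at 0.4 mg per kg per day for the same time. Cyproterone acetate blocks the androgen receptor and acts as a progestogen, and tamoxifen binds the estrogen receptors as a selective modulator. All sperm were treated with dithiothreitol and looked over by microscope for round cells. Per the labels' protocols, the sperm were digested with 4 units of micrococcal nuclease at 37 °C for 2 minutes, and the band near 150 bp was cut out. There were 2 control libraries and 1 library per treatment, so treatment and library cannot be told apart, and no treated value has a replicate spread. How many animals a library holds, and whether the control libraries came from separate animals, is not said in the labels.

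A nucleosome is a stretch of DNA wound around a core of histones, and nuclease cuts the linker DNA between nucleosomes. Where neighbouring nucleosomes keep a constant distance, the nucleosome repeat length, their centers form an array. In mammalian sperm most histones are replaced by protamines, and only part of the genome keeps nucleosomes. How far the nucleosomes that stay are still ordered in arrays is the question that the runs address.

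Coverage decides what such a search can see. At called positions of chromosome 2 the number of reads was between 1067555 (shallower control) and 1563294 (cyproterone acetate), with 1170574 in the deeper control and 1311684 with tamoxifen. Positions with 1 read or less made up 45.2% to 50.5% of those with reads. Reads are summit coverage divided by the coverage of 1 read and come in steps of 0.5. Each treatment table sets 1 treated library against both controls pooled, and the treated side was found from the step between its values, not from the headers.

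The distances between neighbouring positions showed no preferred repeat. Of 868879 gaps in the control table, 25.3% were 160 to 220 bp long, 29.8% were 100 to 159 bp, 1.81% were shorter and 43.1% were longer. Counted in bins of 10 bp, gaps stepped from 9479 at 90 to 99 bp to 39952 at 100 to 109 bp. Whether position calling sets this step was not tested. Gaps then rose to 45715 at 140 to 149 bp and fell in every bin up to 390 to 399 bp. There were 40497 gaps at 160 to 169 bp and 28320 at 210 to 219 bp. The limits of the rule thus lay on a smooth slope. Just outside them were 42716 gaps of 150 to 159 bp and 24944 of 221 to 230 bp, and just inside were 40497 and 26798. A gap of 160 to 220 bp followed another such gap in 25.8% of cases, against 25.3% of all gaps. The runs are therefore called evenly spaced runs here and not nucleosome arrays.

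**Figure D1:**
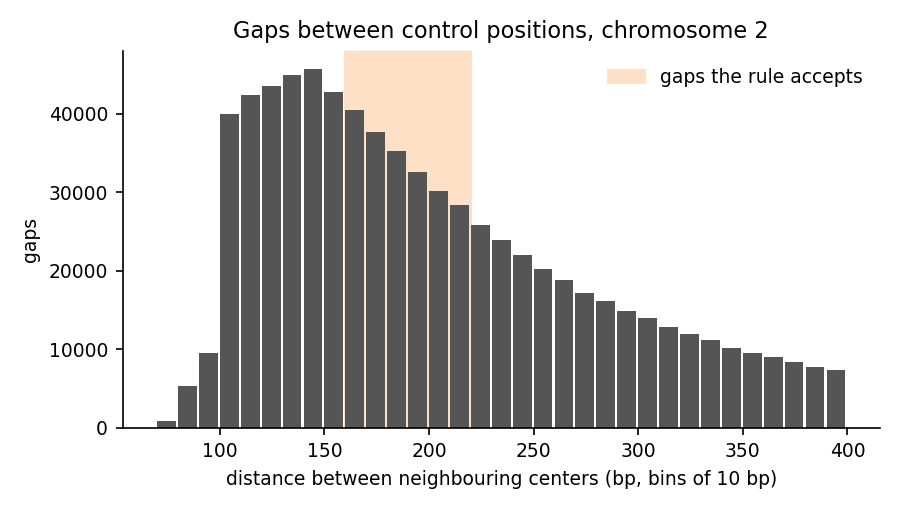
Number of gaps (y axis) by distance between neighbouring centers of the control table (bp, x axis, bins of 10 bp), with the accepted range shaded. Gap numbers peak at 140 to 149 bp and fall without a second peak through the shaded range.

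The number of runs lay near what the same gaps give in no order. With a fixed share of fitting gaps, the expected number of runs follows from that share alone, as the number of gaps times the share to the power of 5 times the share of gaps that end a run. Computed over the whole chromosome it was 669.8 runs. Computed in windows of 1 Mb and summed, it was 692.7, so that the 769 runs were 1.11 times this number. Windows of 100 kb gave 750.5, a value that is biased upward because the share is estimated from few gaps. Within the table, 555 runs had 6 positions, 151 had 7, 47 had 8, 12 had 9, 3 had 10 and 1 had 11. The 1 Mb windows gave 514.4, 132.3, 34.1, 8.84, 2.30 and 0.599 for the same sizes. Just outside the rule were 2027 runs of 5 positions, against 2008.1 from the windows. Every size from 6 to 11 was somewhat more frequent than in unordered gaps, and the excess in numbers was largest for 6 positions.

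**Figure D2:**
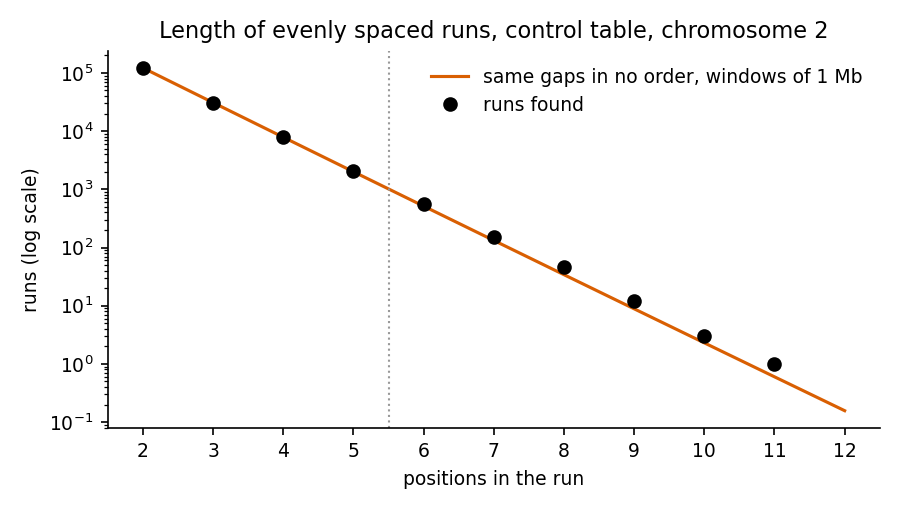
Number of runs (log scale, y axis) by positions in the run (x axis) in the control table of chromosome 2, with points for the runs found and a line for the same gaps in no order within 1 Mb windows. Points lie on the line up to 5 positions and slightly above it from 6 positions on, right of the dotted line that marks the rule.

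The length of a run ranged from 830 to 1840 bp, with a median of 955 bp and quartiles of 920 and 1072 bp. Its repeat length, the mean of its gaps, ranged from 165 to 214 bp around a median of 187 bp. That value is nearly fixed by the limits. The 4143 gaps within runs had a mean of 187.2 bp (SD 18.9) and all 219615 gaps of 160 to 220 bp on the chromosome one of 187.3 bp (SD 18.8), so gaps in a run were no more alike than fitting gaps at large. The SD of gaps within single runs ranged from 4.39 to 30.3 bp, with a median of 18.7 bp. Runs of 5 positions had a median repeat of 187.5 bp.

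Most runs joined positions of different libraries. Reads of both controls lay at 45.6% of the 4912 positions in runs (95% exact interval 44.2% to 47.0%, which covers counting error only), at 44.4% of the positions in 5-position runs and at 42.0% of all positions. Only 5 of 769 runs had reads of both controls at every position, and 24 had them at none. A single control had reads at every position in 212 runs, whereas in 557 runs (72.4%) neither control had reads at every position. Some of the latter can still hold a shorter run of 1 control. Runs found in 1 control alone overlapped 85 (shallower) and 178 (deeper) of the 769 runs. In 402 runs (52.3%) at least 1 pair of neighbouring positions passed from a position read only in one control to a position read only in the other. A position in a run had a mean of 1.32 reads of the shallower control and 1.43 of the deeper one, against 1.23 and 1.35 over all positions.

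Within 1 library the rule gave fewer runs. The shallower control alone held 96 runs (85.2 from unordered gaps in 1 Mb windows) and the deeper control alone 196 (163.4). Of these, 8 overlapped between the libraries, which is 8.33% of the former and 4.08% of the latter. The positions of each control were the centers of the joint table. A position read in both controls thus has the same coordinate in each, so this overlap is partly built in. No background share was worked out for it, so whether it is small or large is not read. Positions in runs of the shallower control had a summit of the deeper control within 20 bp in 33.3% of cases, against 30.9% for all its positions. In the other direction the shares were 30.2% and 27.2%. Keeping only positions with reads in both controls left 11 runs (8.94 from unordered gaps), and asking for at least 2 reads in 1 control left 43 (33.7). Windows of 100 kb, biased upward as said above, gave 101.1 (shallower alone), 187.2 (deeper alone), 13.4 (both controls) and 43.4 (at least 2 reads). Of these counts only that of the deeper control alone exceeded its 100 kb value.

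The longest runs show how thin the evidence at a single position was. The run of 11 positions from 67194912 to 67196752 had gaps of 175, 175, 160, 190, 190, 220, 220, 160, 187 and 163 bp. In the shallower control it held 10 reads at 7 positions, and in the deeper control 14 reads at 9 positions, never more than 2 reads at a position. Both controls had reads at 5 of its 11 positions. With cyproterone acetate the same interval had 10.5 reads at 8 positions, of whose 7 gaps 1 measured 160 to 220 bp, and with tamoxifen 8 reads at 5 positions and 2 of 4 such gaps. Its gaps touch both limits of the rule, and neither treated library repeats it.

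In the 3 runs of 10 positions a control had at most 5 reads at a position. The one from 227705502 to 227707192 had the most control reads of the 3, 14.5 (shallower) and 19 (deeper) at its positions, and both controls had reads at 7 positions. Cyproterone acetate had 19 reads at 8 positions there, and 4 of 7 gaps fitted. Tamoxifen had 12 reads at 7 positions in the same interval, 6 of them at a single one, and 1 of 6 gaps fitted. In the run from 210775082 to 210776792 the deeper control alone had reads at 9 of 10 positions and the shallower at 5. Cyproterone acetate had 25 reads at 10 positions in that interval, the most positions of any library, with 4 of 9 gaps fitting, and tamoxifen had 1 of 6. The run from 124642412 to 124644092 had both controls at only 2 positions, and of its 6 gaps per treated library none fitted with cyproterone acetate and 1 with tamoxifen.

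Runs of 9 positions included one with more reads. From 156230582 to 156232062 the shallower control had reads at all 9 positions, 20 in total, and the deeper control 25 reads at 7 of them. Cyproterone acetate had 23.5 reads at 8 positions with 3 of 7 gaps fitting, and tamoxifen 28 reads at 9 positions with 4 of 8. Another lay from 188003702 to 188005187 with 13.5 and 15 control reads and both controls at 4 of 9 positions. There 2 of 5 gaps fitted with cyproterone acetate and 2 of 7 with tamoxifen.

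Among the runs with most reads per position in the lower control, the first was that from 195072877 to 195073822. Its 6 positions held 21.5 reads of the shallower control and 20 of the deeper one. At its centers the shallower control had 6.5, 0, 2, 4, 3 and 6 reads, and the deeper 2, 2, 6, 4, 2 and 4. Cyproterone acetate had 39.5 reads in the interval, 13 and 12 of them at 2 positions, and tamoxifen had 25, with up to 8 at a position. Treated positions lay close to several of the centers, yet 2 of 5 gaps fitted with cyproterone acetate and 2 of 6 with tamoxifen. In all named runs, treated positions are row centers, midpoints between the treated and the pooled control summit. Closeness to control centers is therefore partly built in.

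A run near the start of the chromosome, from 409232 to 410169, stood apart in the treated libraries. Control reads there were 18 (shallower) and 22.5 (deeper), but reads numbered 127.5 with cyproterone acetate and 147 with tamoxifen, the highest of the 769 runs in both. Under tamoxifen 42, 60.5, 20 and 22.5 of these reads stood at 180, 335, 750 and 925 bp from the first center, and 2 reads at 480 bp. With cyproterone acetate 21, 45.5, 23.5 and 30.5 reads stood at 175, 345, 765 and 935 bp. Both treated libraries had most of their reads at nearly the same places, though these distances are of row centers, which the control summits enter. The control centers themselves were at 0, 185, 350, 560, 745 and 937 bp. In the interval 3 of 6 gaps fitted with cyproterone acetate and 1 of 4 with tamoxifen.

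The run from 156823032 to 156823912 was 1 of the 5 runs with reads of both controls at every position. Its 6 positions had 1, 1, 7, 5, 2 and 1 reads of the shallower control and 5, 1.5, 9, 9, 1 and 1 of the deeper one. Tamoxifen had 22.5 reads at 6 positions and 3 of 5 gaps fitting, the highest share of tamoxifen among the 6 runs of this kind, and cyproterone acetate 23.5 reads with 2 of 4. The remaining 3 runs with many reads in the lower control had 16 to 17.5 reads of the shallower control and 16 to 25 of the deeper one. One of them, from 156210994 to 156211892, had 72 reads with cyproterone acetate and 37 with tamoxifen against 17.5 and 25 in the controls.

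The most regular of the 63 runs with at least 8 positions was that from 180681572 to 180682752, with gaps of 165, 160, 175, 165, 165, 170 and 180 bp (SD 6.90 bp). The deeper control had 1 or 2 reads at each of the 8 positions and the shallower had reads at 4. Cyproterone acetate had 3 of 5 gaps in the accepted range and tamoxifen none of 5, with treated positions up to 80 bp from the nearest center. In the other 5 most regular runs the SD was 10.2 to 12.8 bp. There 1 to 6 gaps fitted with cyproterone acetate, the most in the run from 14700982 to 14702312 with 6 of 8, and 1 or 2 with tamoxifen. The run nearest to the median in length and reads, from 180790824 to 180791787, had 6.5 and 9 control reads. In it 1 of 3 gaps fitted with cyproterone acetate and 1 of 4 with tamoxifen.

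**Figure D3:**
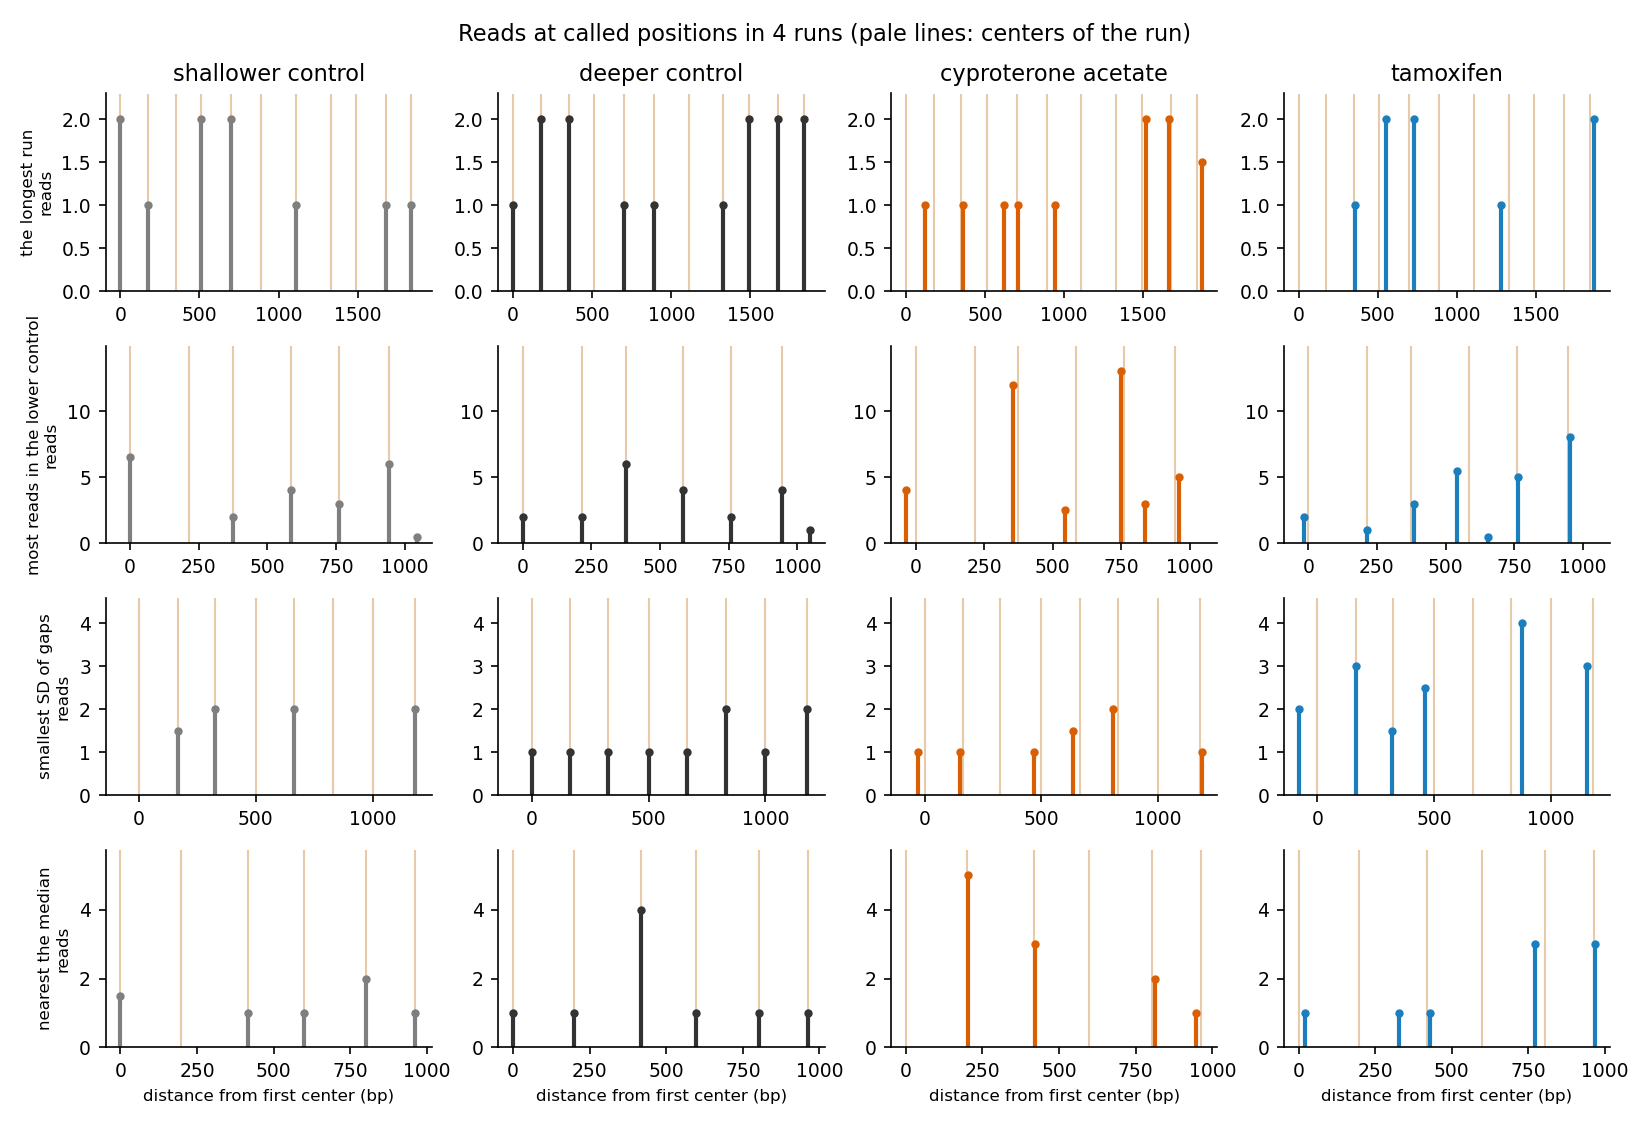
Reads at called positions (y axis, 1 scale per row) by distance from the first center (bp, x axis) in 4 runs, 1 run per row and 1 library per column, with pale lines at the centers of the run. Control reads stand on the lines by construction, in most rows at only some of them, while treated reads stand on and between the lines. Treated positions are row centers, which the pooled control summits enter.

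The runs were spread along the whole chromosome. Over the 53 complete bins of 5 Mb there were 3 to 27 runs per bin, with a median of 13. The highest number, 27, lay between 140 and 145 Mb (21.5 from unordered gaps) and the lowest, 3, between 160 and 165 Mb, which also held the fewest positions (7480). Across these bins Pearson's r between runs and positions was 0.53 and Spearman's rho 0.53. Both counts come from the same table and the same depth, so this is a description. Set against unordered gaps, the bin from 95 to 100 Mb was highest, with 24 runs against 11.1, and that from 10 to 15 Mb lowest, with 4 against 9.06.

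The ratio of runs to the unordered number was highest where positions were sparse. Windows of 100 kb were ranked by their number of positions and cut into 5 classes of nearly equal size. In the sparsest class (up to 283 positions) there were 68 runs against 49.9 from unordered gaps, a ratio of 1.36. The following classes had ratios of 1.31, 1.17 and 1.17, and the densest (401 to 478 positions) had 225 runs against 240.7, a ratio of 0.935. These unordered numbers used 1 share of fitting gaps per class. Uneven density within a class makes such a number too low, and the sparsest class had the widest range, 1 to 283 positions. Its part in the ratios was not tested. Runs per 100000 positions rose over the classes from 72.2 to 101.8, since closer positions give more gaps within the limits. Neighbouring runs lay a median of 203 kb apart. Only 12 neighbouring pairs were within 5 kb and 23 within 10 kb, and of 2655 windows of 100 kb, 630 held a run and 127 held 2 or more, with at most 4. Genes and exons were not assigned, because no annotation of build rn6 was used here.

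Both treated libraries had fewer of their reads in the intervals than the controls that defined them. An interval is a run with 100 bp on either side. The share of a library's chromosome 2 reads in the intervals was 0.618% in the shallower control (95% exact interval 0.603% to 0.633%) and 0.613% in the deeper one (0.599% to 0.627%). It was 0.538% with cyproterone acetate (0.526% to 0.549%) and 0.562% with tamoxifen (0.549% to 0.575%). The treated shares were thus 0.874 and 0.913 times that of both controls together, while the controls differed from each other by a ratio of 1.01. The intervals were picked for control positions, which raises the control share by construction. Intervals of 5-position runs, picked in the same way, gave 0.844 and 0.895. Restricted to positions called within 20 bp of each other in both tables, the direction turned, with 1.09 for cyproterone acetate and 1.11 for tamoxifen.

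All 4 libraries had more reads in the intervals than over the chromosome. The shallower control had 7.10 and the deeper 7.71 reads per kb of interval, 1.77 and 1.76 times their chromosome values. Cyproterone acetate had 9.04 per kb, 1.54 times its chromosome value, and tamoxifen 7.92, 1.61 times. Intervals of 5-position runs were close, at 1.72 (shallower), 1.71 (deeper), 1.45 (cyproterone acetate) and 1.53 (tamoxifen) times the chromosome values. Single intervals had 0 to 24 reads in the shallower control (median 8), 1 to 26.5 in the deeper (median 9), 1 to 127.5 with cyproterone acetate (median 10) and 0 to 147 with tamoxifen (median 9). No tamoxifen read lay in 1 interval, and the shallower control was at 0 in 2.

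The authors' deposited tables call single positions different where the false discovery rate (FDR) does not exceed 0.05. For cyproterone acetate the authors' deposited table called 180 of 4932 positions in the intervals (3.65%) higher than the pooled controls, beside 5.86% of all positions. The same table had 449 positions (9.10%) lower, beside 7.58%. For tamoxifen the authors' deposited table called 267 of 4722 higher (5.65%, beside 10.7%) and 323 lower (6.84%, beside 5.96%). The median log2 ratio of summit occupancy in the authors' deposited tables was -0.55 in the intervals against -0.04 over all positions for cyproterone acetate, and -0.77 against -0.26 for tamoxifen. Since the pooled controls include the libraries that chose the intervals, nothing is read from these shares. Between the controls, 777 of 4912 run positions (15.8%) were called in the authors' deposited table, beside 15.7% of all positions.

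In the treated libraries evenly spaced gaps were in excess inside the intervals by row centers, and not by summits when only short gaps were counted. Row centers of the treatment tables gave 33.4% of gaps in the accepted range with cyproterone acetate (1058 of 3169, 95% exact interval 31.7% to 35.1%) and 34.4% with tamoxifen (972 of 2822, 32.7% to 36.2%). On the whole chromosome these shares were 23.6% and 21.3%, and in the intervals of 5-position runs 34.1% and 32.6%. Within the controls, where the rule fixed them, they were 72.1% and 79.6%. An interval of about 1 kb cannot hold long gaps, which raises every share inside, and a row center is the midpoint between the treated and the pooled control summit, so the control positions enter it.

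Among gaps of up to 220 bp alone, row centers still gave 50.4% inside the intervals (48.2% to 52.5%) against 45.6% on the chromosome with cyproterone acetate, and 53.3% (50.9% to 55.6%) against 45.4% with tamoxifen. By row centers the intervals of 5-position runs gave 51.3% with cyproterone acetate and 51.0% with tamoxifen, so this excess was not particular to the runs. Gaps of up to 220 bp between treated summits were counted next. Of these, the share of 160 to 220 bp was 46.8% inside the intervals with cyproterone acetate (44.6% to 49.0%) and 48.1% on the whole chromosome. With tamoxifen it was 48.3% (45.9% to 50.7%) and 48.8%. In the intervals of 5-position runs it was 48.2% for each treatment. Summits with a coordinate of their own, not shared with the pooled summit of the row, gave 54.2% inside against 53.5% on the chromosome for cyproterone acetate, and 54.8% against 54.7% for tamoxifen. Between summits, with gaps of up to 220 bp, no excess was thus detectable in either treated library, whereas row centers showed one.

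**Figure D4:**
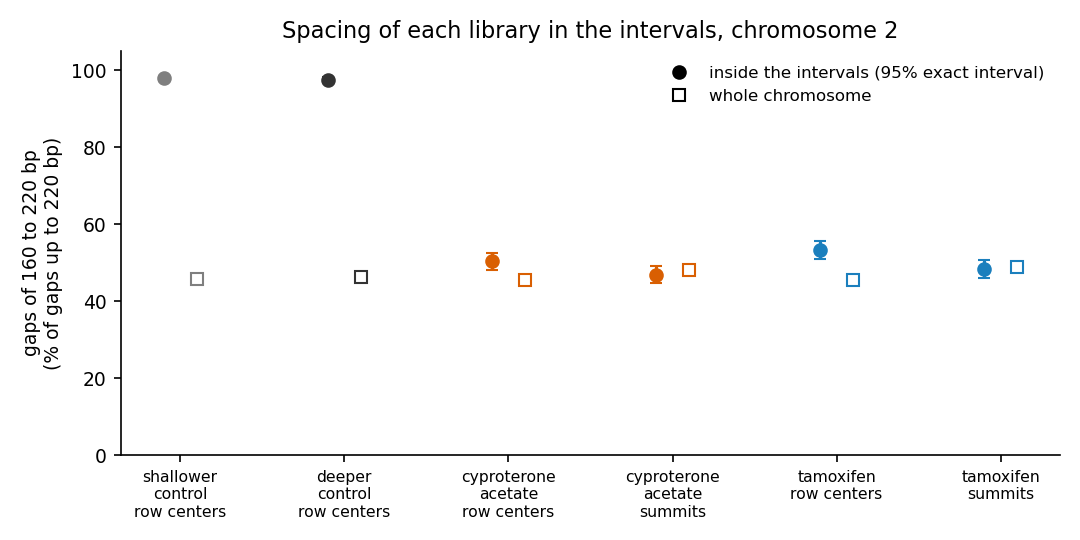
Share of gaps of 160 to 220 bp among gaps of up to 220 bp (percent, y axis) in the run intervals (filled, with 95% exact intervals for counting error) and on the whole of chromosome 2 (open), by library and by row centers or summits. Control shares inside are high because the rule chose them, and those of treated summits lie at the chromosome values of 48.1% and 48.8%.

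Few of the runs were met by a run of a treated library. Applied to the positions of 1 treated library, the rule gave 500 runs with cyproterone acetate and 314 with tamoxifen. Unordered gaps gave 464.3 and 254.4 in windows of 1 Mb, and 507.7 and 286.2 in windows of 100 kb. The runs of each treated library overlapped 12 of the 769 control runs (1.56%), beside 1.04% (cyproterone acetate) and 0.592% (tamoxifen) of the 5-position runs. The treatment tables with all their rows gave 1219 and 917 runs. Those of the cyproterone acetate table touched 39 of the 769 control runs (5.07%), which is 3.20% of its own runs, and for tamoxifen 28 were touched (3.64%, and 3.05% of its own). Of the 5-position runs, 3.95% and 2.66% were touched, and the runs of the tables cover 0.460% and 0.345% of the chromosome. These tables contain the control libraries too, and the positions of 1 treated library are their row centers, which control summits enter. Neither overlap is therefore independent of the rule. The 5-position runs are also shorter (median 750 bp against 955 bp), which leaves less room for an overlap.

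A treated summit within 20 bp was slightly more frequent at run centers than at all centers, while the median distance to the nearest one was the same, 90 bp with cyproterone acetate and 100 bp with tamoxifen. With cyproterone acetate, 13.9% of the 4912 centers had a summit of the treated library's own coordinate within 20 bp (95% exact interval 12.9% to 14.9%), against 12.2% of the centers of 5-position runs and 11.7% of all control centers. Midpoints between neighbouring run centers, where linkers would lie, had one in 11.9% of cases, and midpoints of all gaps of 160 to 220 bp in 12.7%. With tamoxifen the share at run centers was 12.1% (11.2% to 13.04%), against 11.9% at 5-position runs, 10.96% at all centers and 11.7% at midpoints within runs. Within 10 bp, tamoxifen had 5.78% at run centers and 6.01% at midpoints within runs. Counting every treated summit, shared coordinates included, raised the shares at run centers to 25.4% and 22.9%, and those of all centers to 22.5% and 20.6%. Reads per kb were higher in the intervals, as given above, and their part in these differences was not tested.

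Over chromosome 2 as a whole, summits of both treated libraries had a repeat that control summits did not show. Distances between all pairs of summits were counted for each library, and pairs at 2, 3 and 4 times the mean gap of the runs (187.2 bp) were set against pairs at 2.5 and 3.5 times, within 30 bp. Per bp of distance, tamoxifen had 3.12% more pairs at the whole than at the intermediate multiples, from 406981 and 263113 pairs. With cyproterone acetate the excess was 1.14%, from 516454 and 340411 pairs. In the shallower control the value was -0.53% and in the deeper -0.46%. Counting error alone is 0.22% to 0.30% in these 4 values, and is too small a measure since pairs share summits.

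The period that described the pairs best was 192 bp with tamoxifen and 190 bp with cyproterone acetate, with amplitudes of 1.51% and 0.80% of the mean pair number between 300 and 1500 bp. In the controls the best periods were 214 bp in both, with amplitudes of 0.25% and 0.20%. Between 340 and 419 bp tamoxifen had 104.7% of the mean pair number and between 430 and 499 bp 100.2%, then 103.0% at 530 to 609 bp and 99.2% at 620 to 689 bp. In the deeper control the same ranges had 102.2%, 102.0%, 101.5% and 100.2%, and in the shallower 102.5%, 101.6%, 101.6% and 100.8%. The pooled controls of the treatment tables had -0.15% and -0.24% at whole against intermediate multiples. The treated libraries held more reads than either single control, and cyproterone acetate more than tamoxifen. The part of depth in these values was not tested.

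**Figure D5:**
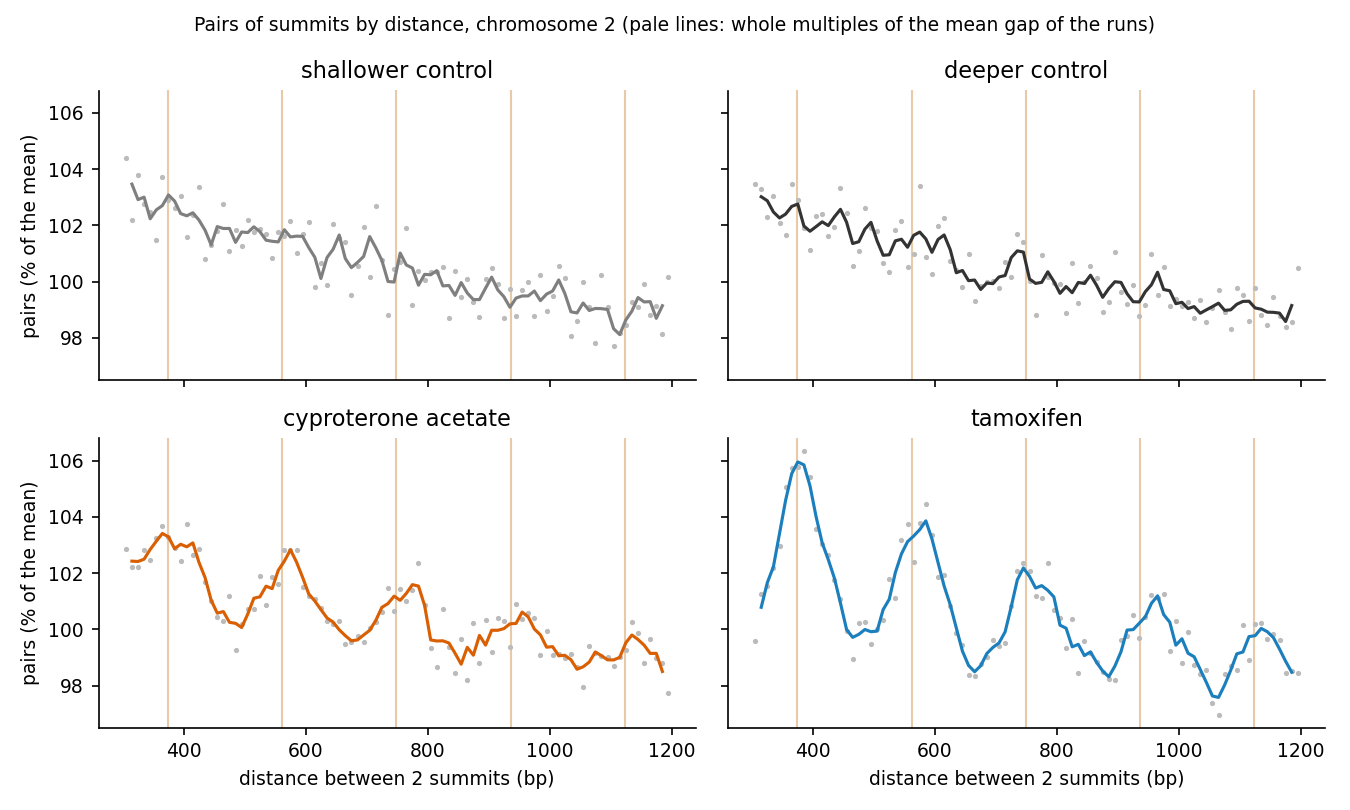
Pairs of summits (percent of the mean between 300 and 1500 bp, y axis) by distance (bp, x axis) for the 4 libraries on chromosome 2. Grey points are bins of 10 bp, lines are means over 3 bins, and pale lines mark whole multiples of 187.2 bp. Tamoxifen and, less, cyproterone acetate rise near the first pale lines and drop between them, with amplitudes of 1.51% and 0.80%, against 0.25% and 0.20% in the controls.

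Leaving out the run intervals could change the repeat of the treated libraries only little. It kept 690163 of 693730 tamoxifen summits and 787322 of 791258 cyproterone acetate summits. Without summits in the run intervals the excess was 3.09% with tamoxifen and 1.14% with cyproterone acetate. Summits of at least 2 reads raised it to 5.82% and 2.21%, against -1.30% and -0.36% in the controls. Own coordinates gave 3.78% and 1.26%. Inside the intervals, tamoxifen had 617 pairs at 2 repeats against 604 at 1.5 and 486 at 2.5, a ratio of 1.13 to their mean, beside 1.05 on the whole chromosome and 1.08 in the intervals of 5-position runs. Cyproterone acetate had 705 against 726 and 588, a ratio of 1.07, beside 1.02 and 1.06. These pairs include shared coordinates. On chromosome X the excess was 3.46% with tamoxifen and 0.59% with cyproterone acetate, against 0.68% (shallower) and 0.24% (deeper) for the controls, so that on X cyproterone acetate lay within the range of the controls. Counting error alone on X was 0.44% to 0.65%. With 1 library per treatment, whether the repeat belongs to the treatment, to the animals or to the preparation of the library cannot be told apart.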

How the data were processed

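Tables of nucleosome positions for chromosomes 2 and X were deposited for the control pair and for each treatment against both controls pooled (6 tables). The submitters' processing notes name Bowtie2, SAMtools 1.4 and build rn6. The program that called positions was not given in the sources used here. Summit values are a coverage signal that the authors scaled to a common depth. Per the file headers, the deposited log2 ratios of summit occupancy and their FDR (adjusted p-value) come from the authors. Another 24 columns with values of a library or the pool were not used.

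The side headed control in the treatment tables has 1 step between its values and the other side 2, so the former was read as the treated library and the deposited log2 ratios were turned accordingly. Headers of the control table do not name the replicates, and its libraries are named by depth. Coverage divided by the step gave reads, in steps of 0.5 (tolerance 0.01). Where both sides had reads, many summits share 1 coordinate, so own coordinates were also used alone. Rows were sorted by center and searched with Python 3.11.15, numpy 2.4.6 and pandas 2.3.3. Exact binomial intervals came from scipy 1.17.1 and figures from matplotlib 3.10.9. The search and the pair counts were tested on simulated data. No shuffling was done, and the closed form in windows of 1 Mb stands in its place.

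Members and lists were chosen with earlier results of these data known. Named runs were the 6 with most positions (ties by control reads), the 6 with most reads per position in the lower control, the 6 with the smallest SD of gaps among those with at least 8 positions, and the one nearest the median. The lists of named genes were not used, for want of an rn6 annotation here. No test was made, because the rule uses the controls and each treatment has 1 library.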

Additional observations from a re-analysis of the deposited data

How the results depend on the processing

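The number of runs follows the limits. On chromosome 2 it was 2527 with gaps of 150 to 230 bp, 120 with 170 to 210 bp, 2796 with at least 5 positions, 214 with at least 7, 43 with at least 2 reads in one control and 11 with reads in both controls. Unordered gaps in 1 Mb windows gave 2360.6, 123.3, 2700.9, 178.3, 33.7 and 8.94 for these, so limits of 170 to 210 bp left no excess there. On X the 80 runs became 303, 16, 431, 15, 3 and 0 in the same order, against 248.3, 12.9, 369.2, 13.9, 0.652 and 0.135. With 1 control alone there were 96 to 196 runs on chromosome 2 and 5 to 13 on X. Summits in place of centers gave 756 and 782 runs. The share of run positions with reads in both controls was 62.3% with at least 2 reads in one control.

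For cyproterone acetate and tamoxifen in turn, the share of reads relative to the controls was 0.848 and 0.891 with at most 3 reads per position, 1.09 and 1.11 at matched positions (on the other side of 1), and 0.870 to 0.878 and 0.909 to 0.917 over 1 control at a time. Gaps of 160 to 220 bp inside the intervals were 24.7% and 24.7% with at least 2 reads (13.4% and 11.5% on the chromosome), 29.6% and 29.6% between summits (24.7% and 22.6%), and 23.4% and 24.3% between own summits (19.6% and 17.8%). In runs of at least 8 positions they were 38.1% with cyproterone acetate. Summits lay near run centers in 6.98% and 5.78% of cases within 10 bp, 25.3% and 23.0% within 40 bp, 8.49% and 7.27% with at least 2 reads, and 25.4% and 22.9% with every summit. Each of these stayed above the value of all centers.

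Pairs at whole against intermediate multiples (alternatives chosen after seeing the data) were -1.30% (shallower control), -0.36% (deeper), 2.21% (cyproterone acetate) and 5.82% (tamoxifen) with at least 2 reads. Own summits gave -0.65% (deeper), 1.26% and 3.78%. Without the run intervals the controls were at -0.996% (shallower) and -0.897% (deeper), against -0.53% and -0.46% with them. The rule chose these intervals for evenly spaced control positions. Leaving them out therefore removes control pairs at whole multiples by construction, and nothing is read from this fall of the controls. On X the controls were at 0.68% and 0.24%, opposite in sign to chromosome 2, and the treated values were 0.59% and 3.46%. Counting error alone on X was 0.65% (shallower), 0.57% (deeper), 0.44% (cyproterone acetate) and 0.56% (tamoxifen). The sign of the controls on X is thus not settled. Why the chromosomes differ was not tested. Overlap with genes was not run. No paired analysis was possible because the labels name no pairs of control and treated libraries, and each treatment has 1 library. Intervals hold for counting error alone, because PCR copies were not marked by molecular identifiers. The median position with reads had 1 read in either control, and a nucleosome without a read cannot enter a run.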

Other observations

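On chromosome X the same rule gave 80 runs among 341280 control positions, or 23.4 per 100000 positions against 88.5 on chromosome 2. Positions were farther apart on X, with a median gap of 270 bp against 200 bp, and 19.0% of gaps fitted. Unordered gaps in 1 Mb windows gave 71.5 runs, so that the ratio of 1.12 on X was close to the 1.11 of chromosome 2. Windows of 100 kb gave 83.6 on X, above the 80 runs found. The runs of X had a median length of 952.5 bp, a median repeat of 186 bp and at most 10 positions. Both controls had reads at a median of 2 positions per run, against 3 on chromosome 2. With positions that had reads in both controls, no run was left on X (0.135 from unordered gaps).

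Single libraries of X held 5 runs in the shallower control, 13 in the deeper, 46 with cyproterone acetate and 17 with tamoxifen. In the same order, unordered gaps gave 4.31, 8.12, 34.1 and 13.1 in windows of 1 Mb, and 6.90, 11.5, 43.1 and 18.1 in windows of 100 kb. Tamoxifen summits on X had a best period of 194 bp with an amplitude of 1.69%, and cyproterone acetate summits one of 186 bp with 0.55%. In the controls the amplitudes were 0.65% and 0.38%, at periods of 162 and 228 bp.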
